A study of Mus musculus with 34 samples.

Results

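The 8 genes described here encode enzymes and regulators of arginine, creatine and polyamine metabolism: *Ass1*, *Asl*, *Gatm*, *Agmat*, *Oat*, *Odc1*, *Azin2* and *Sat1*. They were chosen by name from 23509 genes counted in each of 34 mouse kidneys, and all 8 passed the filter on low counts. The study asked how an oligonucleotide against the microRNA miR-17, RGLS4326, changes polycystic kidneys. All mice were on a C57BL6 background and were killed on postnatal day 28 (P28). *Pkd2*-KO mice, in which a Cre recombinase driven by the *Pkhd1* promoter in kidney tubules deletes floxed *Pkd2* alleles, received RGLS4326 at 20 mg per kg (n = 11) or PBS (n = 11) subcutaneously on P10, P11, P12 and P19. Wild-type mice without transgene and without treatment (UNT, n = 12) gave the normal kidneys, so genotype, Cre and injection all differ between UNT and PBS and cannot be told apart. The study also describes RNA-seq of *Pkd2*-KO mice given a control oligonucleotide, which are not among the 34 kidneys. Inhibition of miR-17 and receipt of an oligonucleotide therefore cannot be told apart between RGLS4326 and PBS. The labels spell the knockout "Pdk2KO", and they do not say whether mice shared a litter.

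The kidney is a main source of the body's arginine. Proximal tubule cells take up citrulline, join it to aspartate with argininosuccinate synthase (*Ass1*) and split the product with argininosuccinate lyase (*Asl*), and the same cells make guanidinoacetate, the precursor of creatine, with glycine amidinotransferase (*Gatm*). Arginine also gives rise to ornithine, which ornithine aminotransferase (*Oat*) sends towards glutamate and proline and ornithine decarboxylase (*Odc1*) sends to the polyamine putrescine. Agmatinase (*Agmat*) is named for the cleavage of agmatine to putrescine, antizyme inhibitor 2 (*Azin2*) protects ornithine decarboxylase from antizyme, and spermidine/spermine acetyltransferase (*Sat1*) starts the breakdown of the higher polyamines.

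RGLS4326 is complementary to the seed of miR-17, and the microRNA is shown for this reason, with the seed (bases 2 to 8) in capitals.
mmu-miR-17-5p: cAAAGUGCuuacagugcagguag
It lies at chr14:115043684-115043706 on the plus strand (RefSeq, GRCm38.p6).

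Libraries held from 17603122 to 54981992 reads in genes. Levels are given as CPM, read counts relative to the TMM-scaled library size, and tests are edgeR's quasi-likelihood test over 15644 genes with Benjamini-Hochberg adjustment (adjusted p). Numbers in the deposited table names restart and so mark 3 sets of libraries, each with 3 or 4 mice of every group. Known proximal tubule genes, 11 in the list used here, were all lower in PBS than in UNT and their groups did not overlap, with summed levels from 14623 to 19634 CPM (median 16877) in UNT, from 1283 to 4593 CPM (median 2703) in PBS and from 2804 to 4973 CPM (median 4041) in RGLS4326. Summed levels of 8 macrophage genes ranged from 113 to 192 CPM (median 131), from 971 to 2977 CPM (median 1939) and from 910 to 1869 CPM (median 1463), respectively, and all 8 were higher in PBS than in UNT. Summed levels of 5 collecting duct genes, all higher in PBS than in UNT, ranged from 529 to 874 CPM, from 842 to 2270 CPM and from 454 to 1989 CPM, and those of 5 thick ascending limb genes, 4 lower and 1 higher, from 6192 to 9852 CPM, from 2421 to 4652 CPM and from 3607 to 5172 CPM. Hepatocyte sums (6 genes) ranged from 46.2 to 159 CPM, from 50.6 to 141 CPM and from 49.7 to 86.0 CPM, and neutrophil sums (4 genes, all higher in PBS than in UNT) from 0.49 to 5.099 CPM (median 1.28), from 2.99 to 27.5 CPM (median 9.20) and from 3.56 to 8.67 CPM (median 5.89). The part of cell types other than the proximal tubule in the gene differences was not tested. Reads outside annotated genes made up 9.84% to 11.3% of a library in UNT, without overlap with PBS (5.18% to 8.995%). Reads not mapped uniquely, which were not counted, made up 22.8% to 25.7% in UNT, 14.8% to 19.4% in PBS and 14.8% to 19.1% in RGLS4326. Libraries were made from whole kidney, so fewer cells of a type and less RNA per cell cannot be told apart.

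PBS-treated *Pkd2*-KO kidneys differed from UNT in all 8 genes. *Ass1*, *Asl*, *Gatm*, *Agmat*, *Oat*, *Odc1* and *Sat1* were lower and *Azin2* was higher. This count stands against a background in which 82.1% of all tested genes were called in this comparison, 43.1% higher and 39.0% lower. Median log2 fold changes were -1.07 over the 8 genes and 0.04 over all tested genes. The ranges of both groups did not overlap for 5 genes that were lower (*Ass1*, *Asl*, *Gatm*, *Agmat*, *Odc1*) and for none that was higher (0), where 42.5% of all tested genes did not overlap, 19.8% lower and 22.7% higher. After RGLS4326, 2 of the 8 genes differed from PBS, *Gatm* and *Agmat*, both upward, where 33.8% of all tested genes were called.

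**Figure D1:**
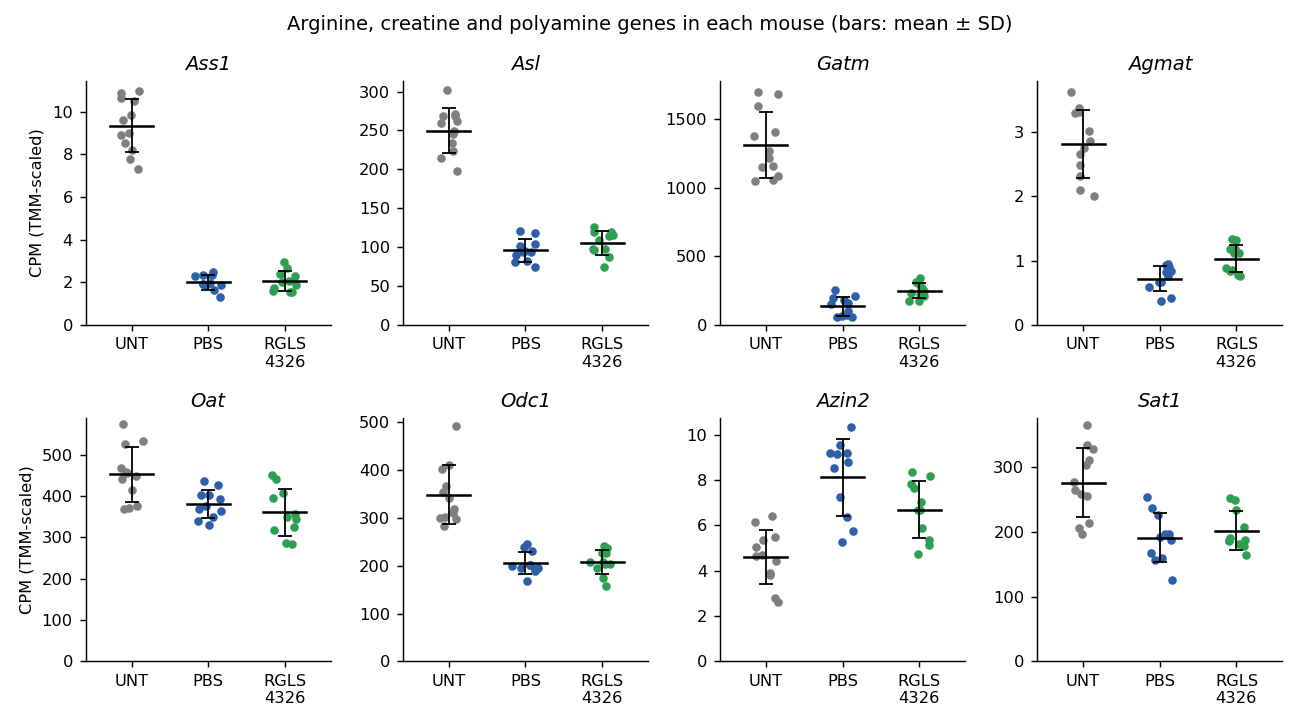
CPM of each gene (y axis, linear from 0, its own scale in each panel) in each of 34 mice by group (x axis); points are mice, the long line is the mean and bars are ± SD. *Gatm* is at least 1051 CPM in every UNT mouse and at most 339 CPM in every *Pkd2*-KO mouse, while *Azin2* is the 1 gene with a higher mean in both *Pkd2*-KO groups than in UNT.

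Arginine synthesis was measured through *Ass1* (chr2:31470207-31520672) and *Asl* (chr5:130011258-130029247; all gene positions are on GRCm38). The lowest, median and highest levels of *Asl* were 198, 254 and 302 CPM in UNT, 74.3, 93.7 and 121 CPM in PBS, and 74.4, 109 and 125 CPM in RGLS4326. Every *Pkd2*-KO mouse therefore lay below every UNT mouse, and both *Pkd2*-KO groups overlapped along most of their range. *Asl* fell by 1.38 on the log2 scale from UNT to PBS (SE 0.09, adjusted p = 6.53e-17), and its difference between RGLS4326 and PBS was 0.14 (SE 0.09, adjusted p = 0.21).

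*Ass1* was counted at 7.33, 9.30 and 11.0 CPM in UNT, 1.32, 1.91 and 2.46 CPM in PBS, and 1.53, 2.02 and 2.94 CPM in RGLS4326. No *Pkd2*-KO mouse reached the lowest UNT mouse, and the *Pkd2*-KO groups lay on top of each other. The difference between PBS and UNT was -2.23 (SE 0.11, adjusted p = 1.68e-19), a level 4.70-fold lower, and that between RGLS4326 and PBS was 0.04 (SE 0.12, adjusted p = 0.791). Its level is uncertain: of the 75-base stretches of its longest transcript, 46.9% occur also in the copy *Gm5424*, only uniquely mapped reads were counted, and *Gm5424* was listed at 0 in all libraries.

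*Gatm* (chr2:122594467-122611303), the first enzyme of creatine synthesis, had the largest decrease of the 8 genes. Its lowest, median and highest levels were 1051, 1242 and 1697 CPM in UNT, 55.0, 154 and 250.3 CPM in PBS, and 171, 249 and 339 CPM in RGLS4326. UNT mice stood far above all others, and all 11 RGLS4326 mice exceeded the PBS mean, 5 of them exceeding every PBS mouse. From UNT to PBS the gene fell by 3.28 on the log2 scale (SE 0.22, adjusted p = 1.14e-15; 9.71-fold), and it was 0.87 higher in RGLS4326 than in PBS (SE 0.21, adjusted p = 0.00462; 1.83-fold). The mice also varied unequally. The coefficient of variation was 51.8% in PBS, against 18.2% in UNT and 21.9% in RGLS4326.

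*Agmat* (chr4:141746672-141759263) was a low gene, with 13 to 151 reads per library. Its lowest, median and highest levels were 2.004, 2.81 and 3.63 CPM in UNT, 0.37, 0.76 and 0.95 CPM in PBS, and 0.76, 1.12 and 1.33 CPM in RGLS4326. UNT mice lay above all others, and 6 of 11 RGLS4326 mice lay above every PBS mouse. It was 1.96 lower on the log2 scale in PBS than in UNT (log2 fold change -1.96, SE 0.14, adjusted p = 7.94e-15) and 0.52 higher in RGLS4326 than in PBS (SE 0.15, adjusted p = 0.0118).

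Genes at the branch from ornithine moved less. *Oat* (chr7:132557478-132576398) had lowest, median and highest levels of 368, 452 and 575 CPM in UNT, 331, 375 and 436 CPM in PBS, and 284, 349 and 451 CPM in RGLS4326. The groups overlapped widely. The log2 difference between PBS and UNT was -0.25 (SE 0.08, adjusted p = 0.00609), but with scaling by library size alone it was 0.05 (adjusted p = 0.53), a scaling that shifted the median of all genes by 0.29. With the percentage of reads outside genes as a term it was -0.55 (adjusted p = 1.37e-05). Within the library sets it was -0.27, -0.21 and -0.33, with adjusted p of 0.118, 0.0843 and 0.0574. Between RGLS4326 and PBS it was -0.08 (SE 0.08, adjusted p = 0.456).

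*Odc1* (chr12:17544794-17551505), the rate-limiting enzyme of polyamine synthesis, had lowest, median and highest levels of 284, 329 and 492 CPM in UNT, 167, 198 and 245 CPM in PBS, and 158, 207 and 241 CPM in RGLS4326. All *Pkd2*-KO mice were below all UNT mice. It fell by 0.76 on the log2 scale from UNT to PBS (SE 0.08, adjusted p = 2.71e-10), and the difference between RGLS4326 and PBS was 0.02 (SE 0.09, adjusted p = 0.895). Of its 75-base stretches 30.5% are shared with 13 other annotated genes, so its counts are uncertain too.

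*Azin2* (chr4:128930233-128962442; named *Adc* in the deposited tables), was 2.61, 4.67 and 6.42 CPM in UNT, 5.25, 8.82 and 10.4 CPM in PBS, and 4.76, 6.70 and 8.36 CPM in RGLS4326 at its lowest, median and highest. PBS mice were mostly above UNT mice, with some overlap, and the RGLS4326 median lay between the others. The log2 difference was 0.82 between PBS and UNT (SE 0.14, adjusted p = 1.51e-06) and -0.28 between RGLS4326 and PBS (SE 0.14, adjusted p = 0.107). In the second library set alone the former was 0.23 (adjusted p = 0.268), against 1.003 and 1.17 in the others.

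*Sat1* (chrX:155213132-155216449) was 197, 271 and 364 CPM in UNT, 125, 192 and 254 CPM in PBS, and 164, 188 and 252 CPM in RGLS4326. It fell by 0.53 on the log2 scale from UNT to PBS (SE 0.11, adjusted p = 3.08e-05) with overlapping groups, and the value in the second library set alone was -0.31 (adjusted p = 0.101). Between RGLS4326 and PBS it was 0.08 (SE 0.11, adjusted p = 0.576).

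**Figure D2:**
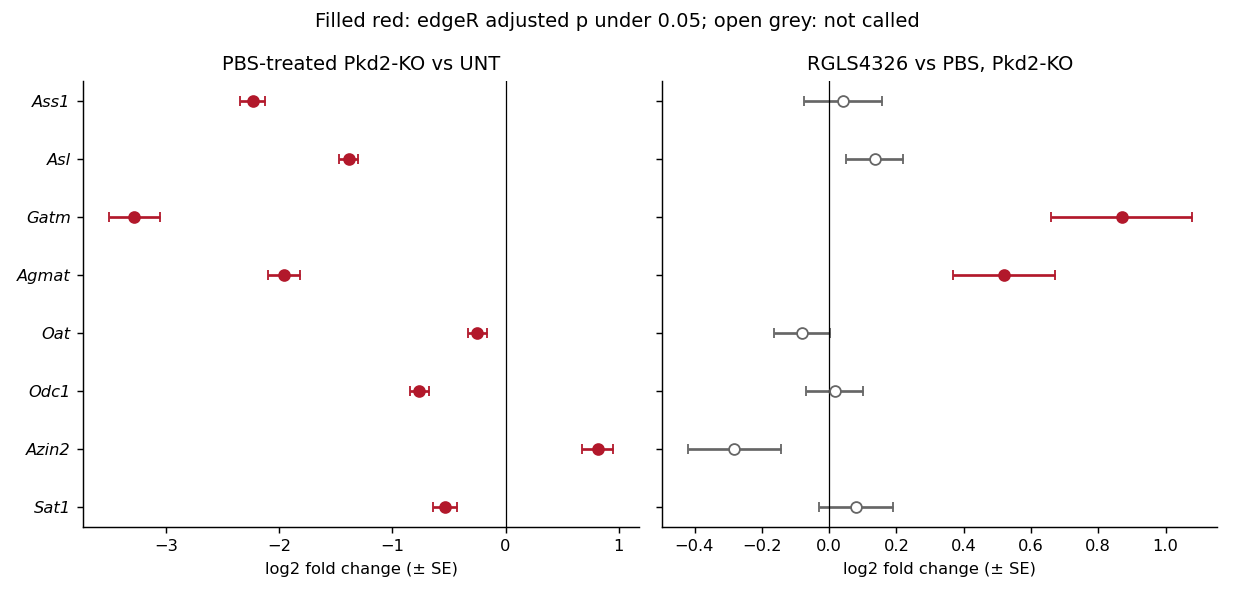
Log2 fold change ± SE (x axis) of each gene (y axis) in PBS-treated *Pkd2*-KO against UNT kidneys (left) and in RGLS4326 against PBS (right, on a narrower scale); filled red points have an edgeR adjusted p under 0.05. On the left all 8 genes are called, from -3.28 for *Gatm* to 0.82 for *Azin2*, and on the right 2 are called, *Gatm* and *Agmat*; both panels use the same PBS mice.

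RGLS4326 and PBS mice overlapped in all 8 genes (0 without overlap). Groups without overlap were rare in this comparison, at 0.0639% of all tested genes (0.0447% higher and 0.0192% lower), where 15.3% were called higher and 18.5% lower. Leaving out any single RGLS4326 or PBS mouse kept both calls, with log2 differences of 0.79 to 0.999 for *Gatm* and 0.45 to 0.57 for *Agmat*. With the library set as a term the differences were 0.89 and 0.51 (adjusted p = 0.00363 and 0.0113). Within single sets the direction was the same in all 3 sets, at 1.32, 0.48 and 0.98 for *Gatm* and 1.16, 0.17 and 0.33 for *Agmat*. None of these values passed the test with 3 or 4 mice per group (adjusted p = 0.0912, 0.325 and 0.262 for *Gatm* and 0.0723, 0.668 and 0.432 for *Agmat*). Reads outside annotated genes made up 5.18% to 8.995% of a library in PBS and 4.94% to 12.0% in RGLS4326. With this percentage as a term in edgeR none of the 8 genes passed (0, and 3 at an unadjusted p under 0.05), and 89 of all tested genes did. The log2 differences in that fit were 0.73 for *Gatm* (SE 0.22, adjusted p = 0.0936) and 0.58 for *Agmat* (SE 0.17, adjusted p = 0.0809), against 0.87 and 0.52 without the term.

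Compared with UNT directly, RGLS4326-treated kidneys differed in all 8 genes, 1 higher and 7 lower, where 77.7% of all tested genes were called, 40.8% higher and 36.9% lower. *Gatm* fell by 2.41 on the log2 scale (SE 0.22, adjusted p = 2.01e-12), and the log2 differences of *Ass1*, *Agmat*, *Asl*, *Odc1*, *Sat1* and *Oat* were -2.19, -1.44, -1.25, -0.75, -0.45 and -0.33. That of *Azin2* was 0.53. With the log2 sum of the 11 proximal tubule genes as a term in edgeR, 2 of the 8 genes kept their calls. These were *Ass1* (-1.58, adjusted p = 5.8e-06) and *Asl* (-0.70, adjusted p = 0.00219), where 5505 of all tested genes were called. *Gatm* was 0.0196 (adjusted p = 0.958) and *Agmat* -0.36 (adjusted p = 0.399) in that fit. RGLS4326 and UNT do not overlap in this sum, so its share cannot be told apart from that of genotype. With scaling by library size alone *Oat* (-0.0268, adjusted p = 0.741) and *Sat1* (-0.14, adjusted p = 0.206) lost their calls, and so in single library sets did *Oat* in the first (-0.28, adjusted p = 0.0879), *Azin2* (0.23, adjusted p = 0.327) and *Sat1* (-0.29, adjusted p = 0.167) in the second, and *Sat1* (-0.54, adjusted p = 0.0545) in the third. For 5 genes the groups did not overlap, *Ass1*, *Asl*, *Gatm*, *Agmat* and *Odc1*, all below UNT, where this held for 36.7% of all tested genes, 20.7% higher and 16.1% lower.

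Levels of different genes were compared per kilobase of the longest transcript. The places of *Ass1* and *Odc1* in this order are uncertain. Of their 75-base stretches 46.9% and 30.5% occur also in other annotated genes, and only uniquely mapped reads were counted. In UNT kidneys *Gatm* led with a mean of 549 CPM per kb and did not overlap the next, *Oat* (210.2 CPM per kb). *Oat*, *Sat1* and *Odc1* could not be ordered beyond their spread, and *Asl* (103 CPM per kb) and *Ass1* (5.51 CPM per kb) followed in separate steps. *Azin2* and *Agmat* came last and overlapped near 2 CPM per kb. In PBS kidneys *Oat* had the highest mean (177 CPM per kb) and *Gatm* the fourth highest (56.5 CPM per kb), each neighbour from *Oat* to *Asl* overlapping the next. *Azin2* (3.94 CPM per kb) stood there above *Ass1* (1.17 CPM per kb) and *Agmat* (0.51 CPM per kb), each apart from the next. In RGLS4326 kidneys *Oat* again had the highest mean, *Gatm* had the third (103 CPM per kb), and *Ass1* and *Agmat*, the last in the order, overlapped.

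Proximal tubule markers and *Gatm* were low in the same PBS mice. Among PBS mice the 4 with the lowest proximal tubule sums (1283, 1290, 1479 and 1810 CPM, replicates 4, 2, 3 and 11) were also the 4 with the lowest *Gatm* (55.9, 55.0, 62.4 and 69.2 CPM), and the mouse with the highest sum (4593 CPM, replicate 7) had the highest *Gatm* (250.3 CPM). *Agmat* was lowest in replicates 3, 4 and 2 (0.37, 0.42 and 0.58 CPM), while replicate 11, at 0.76 CPM, was the PBS median. Among RGLS4326 mice the single extremes did not pair in this way: the lowest sum (2804 CPM, replicate 7) went with 229.8 CPM of *Gatm*, the highest (4973 CPM, replicate 3) with 249 CPM, and the highest *Gatm* (339 CPM, replicate 11) with the median sum. Still, replicates 1, 2, 3, 6, 8 and 11 had higher sums (4041 to 4973 CPM) and higher *Gatm* (249 to 339 CPM) than all others. The other replicates, 4, 5, 7, 9 and 10, had sums of 2804 to 3656 CPM and *Gatm* of 171 to 229.8 CPM. Of the markers, 6 of 11 proximal tubule genes were higher and 5 of 8 macrophage, 3 of 5 collecting duct and 1 of 4 neutrophil genes lower in RGLS4326 than in PBS, 2 of 5 thick ascending limb genes were higher and 1 lower, and of 6 hepatocyte genes 0 were called, where 15.3% of all tested genes were higher and 18.5% lower.

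**Figure D3:**
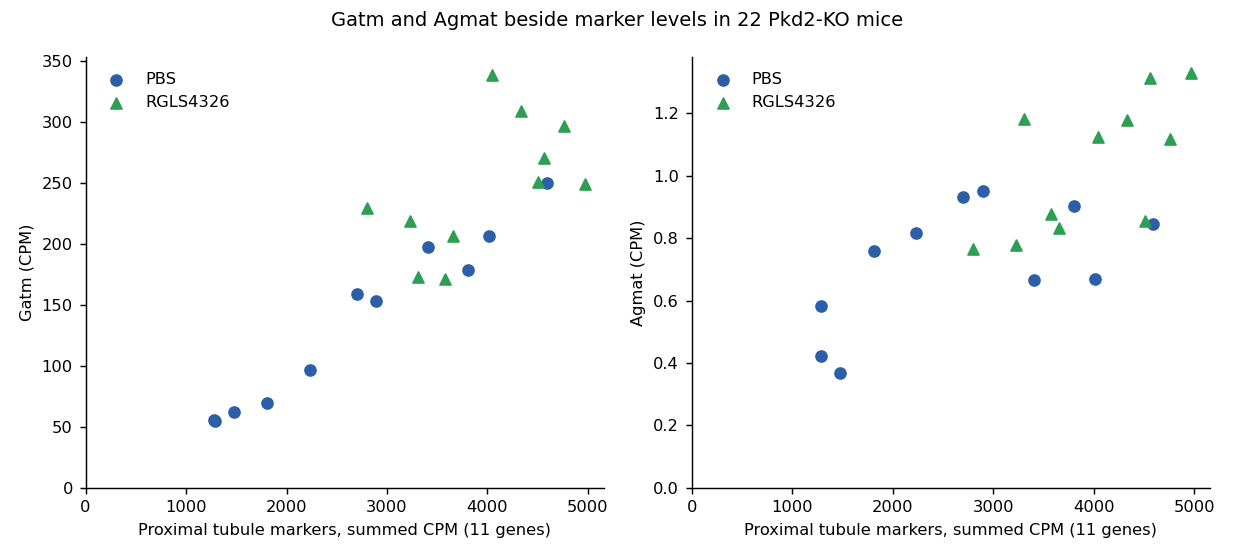
*Gatm* (left) and *Agmat* (right), in CPM, against the summed CPM of 11 proximal tubule genes; each point is 1 of 22 *Pkd2*-KO mice (circles PBS, triangles RGLS4326) and all axes are linear from 0. The PBS mice with the least proximal tubule RNA have the least *Gatm* (from 55.0 CPM), and 3 of them have the least *Agmat* (from 0.37 CPM).

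The genes were also set against the proximal tubule sum in the same mouse, as a log2 ratio (0.01 CPM added to the gene). The mean log2 difference of that sum was -2.81 between PBS and UNT. A higher ratio therefore says only that a gene fell by less than the sum or, for *Azin2*, rose. *Gatm* alone had a lower ratio (-0.66, without overlap), and the ratios of the other 7 genes were higher, from 0.57 for *Ass1* to 3.64 for *Azin2*. The ratios of *Ass1* and *Agmat* (0.82) overlapped between PBS and UNT. Between RGLS4326 and PBS the sum itself was 0.68 higher on the log2 scale, and the ratio of every gene overlapped (0.36 for *Gatm* and -0.14 for *Agmat*). With the log2 sum as a term in the edgeR fit, 2 genes were called between PBS and UNT, *Ass1* (-1.43, adjusted p = 0.00112) and *Asl* (-0.66, adjusted p = 0.035), where that fit called 3355 of 15644 tested genes. *Gatm* was -0.26 (adjusted p = 0.569) and *Agmat* -0.55 (adjusted p = 0.35) in it, both without a call. *Ass1* and *Asl* were thus lower in this fit but higher by the ratio. The ratio takes each gene to move in proportion to the sum, whereas the fit estimates this from the mice, so their values can differ. None was called between RGLS4326 and PBS (0 of 8, and 1 at an unadjusted p under 0.05), where the fit called 2 of all tested genes, and the log2 differences were 0.28 for *Gatm* (SE 0.12, adjusted p = 0.191) and 0.19 for *Agmat* (SE 0.16, adjusted p = 0.462). PBS and UNT do not overlap in this sum, so its share in their difference cannot be told apart from that of genotype.

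Within groups, the 8 genes did not vary as a block. Over 34 mice, after subtraction of the group means from log2 CPM, Pearson's r over the 28 pairs ran from -0.51 to 0.57 with a median of 0.21. *Ass1* and *Agmat* (0.57), *Ass1* and *Odc1* (0.54) and *Gatm* and *Agmat* (0.53) were most alike, and *Odc1* and *Azin2* (-0.51), *Azin2* and *Sat1* (-0.43) and *Gatm* and *Azin2* (-0.33) most opposed. These are descriptions over mice that share library sets and groups.

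The tested genes most like each member by the same measure, of 15644, were as follows. For *Gatm* they were *F13b*, *Galnt11* and *Slc16a4* (r = 0.93 for each). For *Asl* they were *Slc7a7*, the basolateral exporter of cationic amino acids, *Abcb8* and *Gcat* (0.88, 0.88 and 0.86), and for *Ass1* the mitochondrial serine hydroxymethyltransferase *Shmt2*, *Aldh7a1* and *Pepd* (0.71, 0.70 and 0.69). *Agmat* was nearest to *Haao*, *Car5a* and *Ivd* (0.73, 0.71 and 0.71). *Oat* was nearest to *Fam20b* (0.78), *Odc1* to *Mpp1* (0.84), *Azin2* to *Trpm4* (0.83) and *Sat1* to *Kctd6* (0.81).

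The Y-linked gene *Ddx3y* exceeded 1 CPM in 6 of 12 UNT, 6 of 11 PBS and 5 of 11 RGLS4326 mice. In UNT kidneys *Odc1* had a median of 377 CPM in mice above and 306 CPM in mice at or under this level, whereas the medians were 197 and 201 CPM in PBS and 204 and 207 CPM in RGLS4326. Medians of *Oat* were 394 and 463 CPM in UNT, 356 and 402 CPM in PBS, and 319 and 401 CPM in RGLS4326, lower in the mice above this level in each group. Ranges overlapped in all cases. With this call as a term, 8 members were called between PBS and UNT (12868 of 15644 tested genes) and 2 between RGLS4326 and PBS (5535 of 15644).

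Of 51 other genes of these pathways, 42 could be tested. Between PBS and UNT 18 were higher, 21 lower and 3 not called (82.1% of all genes called), with a median log2 fold change of -0.22, and between RGLS4326 and PBS 8 were higher, 11 lower and 23 not called (33.8% of all genes called), with a median of -0.08. With the proximal tubule sum as a term calls between PBS and UNT fell from 39 to 12 of the 42 (3355 of 15644 tested genes). Among the 3 largest called changes of each list, *Agxt2*, *Azin1*, *Ckmt1*, *Gamt*, *Mtap*, *Nos1*, *Prodh2*, *Sat2*, *Slc6a8* and *Slc7a9* lost their calls, and so did further pathway genes. Between RGLS4326 and PBS this term left 0 of the 42 called (8 at an unadjusted p under 0.05), where 2 of all tested genes were called. The percentage of reads outside genes as a term also left 0 (12 at an unadjusted p under 0.05), where 89 of all tested genes were called. The 9 genes that could not be tested had 0 to 23 reads per library, among them the urea cycle enzymes *Cps1* and *Otc*. *Amd1* and *Amd2*, near-identical genes of S-adenosylmethionine decarboxylase, had at most 4 and 0 reads, and 82.0% of the 75-base stretches of *Amd1* occur in other annotated genes.

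Genes of proline and glutamate around *Oat* moved both ways. All 6 were called in PBS against UNT without overlap, where 82.1% of all tested genes were called and 42.5% did not overlap, with *Aldh18a1* and *Pycr1*, enzymes of proline synthesis, higher and *Prodh*, *Prodh2* and *Aldh4a1*, enzymes of proline and hydroxyproline breakdown, and *Pycrl*, a further enzyme of proline synthesis, lower. *Aldh18a1* rose from 6.82 ± 1.19 CPM (SD, n = 12) in UNT to 38.1 ± 7.89 CPM (n = 11) in PBS, a log2 difference of 2.48 (SE 0.11, adjusted p = 3.03e-21), and *Pycr1* rose from 0.26 to 1.95 CPM (log2 2.85, SE 0.23). *Prodh2* fell from 147 ± 24.6 to 25.3 ± 12.3 CPM (log2 -2.54, SE 0.20, adjusted p = 9.79e-14), but with the proximal tubule sum as a term its difference was 0.28 (adjusted p = 0.571). After RGLS4326 *Prodh2* was higher than in PBS (0.76, SE 0.20, adjusted p = 0.00658), and *Aldh18a1* (-0.34) was lower. With the proximal tubule sum as a term these values were 0.18 and -0.0587, both without a call.

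Among 7 tested genes of arginine, citrulline and nitric oxide, 3 were higher (*Ddah2*, *Nos2*, *Prmt1*) and 3 lower (*Agxt2*, *Nos1*, *Ddah1*) in PBS than in UNT. The shares over all tested genes were 43.1% higher and 39.0% lower. *Agxt2*, a mitochondrial aminotransferase that degrades dimethylarginines, fell from 152 to 18.6 CPM (log2 -3.02, SE 0.22, adjusted p = 3.78e-15), but with the proximal tubule sum as a term its difference was 0.0515 (adjusted p = 0.915). *Ddah2* (1.75), of a family that hydrolyses dimethylarginine, rose, and *Nos1* (-1.37), a nitric oxide synthase, fell. After RGLS4326 *Agxt2* was higher (0.62, SE 0.21, adjusted p = 0.0227), and *Ddah2* (-0.39) and the methyltransferase *Prmt1* (-0.24) were lower. With the proximal tubule sum as a term *Agxt2* was -0.0028 and *Ddah2* -0.19 between RGLS4326 and PBS, both without a call. *Agxt2* missed the threshold without replicate 6 of RGLS4326 (adjusted p = 0.0503).

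Creatine genes beside *Gatm* moved less than it. Of 4 tested, 3 were lower in PBS than in UNT, *Gamt*, which methylates guanidinoacetate to creatine (-1.14, SE 0.11, adjusted p = 3.13e-12), the creatine transporter *Slc6a8* (-0.45) and the brain-type creatine kinase *Ckb* (-0.39), and the mitochondrial creatine kinase *Ckmt1* was higher (0.89, SE 0.13). In this comparison 39.0% of all tested genes were lower and 43.1% higher. *Ckmt1* was also the 1 of 4 that was called after RGLS4326, where 33.8% of all tested genes were, from 143 to 95.9 CPM (log2 -0.57, SE 0.13, adjusted p = 0.00323), while *Gamt* had -0.10 (adjusted p = 0.493).

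Of 10 tested genes of polyamine synthesis and its control, 5 were higher (*Mtap*, *Srm*, *Eif5a2*, *Dhps*, *Eif5a*) and 4 lower (*Sms*, *Azin1* and the antizymes *Oaz1* and *Oaz2*) in PBS than in UNT. Of all tested genes 43.1% were higher and 39.0% lower. Spermine synthase (*Sms*) fell from 49.4 ± 6.95 CPM (SD, n = 12) to 15.4 ± 2.28 CPM (n = 11), a log2 difference of -1.68 (SE 0.08, adjusted p = 2.69e-20). *Azin1*, the other antizyme inhibitor, fell by 0.59 on the log2 scale, opposite to *Azin2*, and *Mtap*, which recycles the by-product of polyamine synthesis, was 0.52 higher. After RGLS4326 *Azin1* (0.29) and *Sms* (0.21) were higher than in PBS. Spermidine synthase (*Srm*, -0.32) and the genes of hypusine-modified translation factor *Eif5a* (-0.24) and of the enzyme that begins this modification with spermidine, *Dhps* (-0.28), were lower. The call of *Sms* (adjusted p = 0.0396) was lost when any 1 of 12 mice was left out, with log2 differences of 0.18 to 0.25 over all such fits.

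Polyamine breakdown and transport held the largest increase among the pathway genes. Diamine oxidase (*Aoc1*), which oxidises putrescine and histamine, rose from 9.15 ± 3.23 CPM (SD, n = 12) in UNT to 219 ± 40.2 CPM (n = 11) in PBS (log2 4.58, SE 0.17, adjusted p = 2.25e-23). It stayed at 202 ± 43.6 CPM (n = 11) in RGLS4326, where its difference from PBS was -0.12 (adjusted p = 0.541). Spermine oxidase (*Smox*) was 1.86 higher on the log2 scale and *Sat2*, a relative of *Sat1*, fell by 1.34. In all 4 of 7 genes were higher (*Aoc1*, *Smox*, *Atp13a2*, *Paox*) and 3 lower (*Sat2*, *Atp13a3*, *Slc18b1*) in PBS than in UNT. Among all tested genes 43.1% were higher and 39.0% lower in this comparison. After RGLS4326 *Smox* fell by 0.41 (SE 0.10, adjusted p = 0.00505) and *Atp13a2*, a lysosomal polyamine exporter, by 0.28, and the related *Atp13a3* was higher by 0.42.

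Carriers of arginine and ornithine also moved both ways. The plasma membrane carriers *Slc7a1* (from 20.1 ± 1.47 to 109 ± 22.7 CPM; log2 2.45, SE 0.09, adjusted p = 3.82e-23) and *Slc7a2* (2.15) rose in PBS, as did *Slc7a6* (1.07), and no other of the 8 was called higher. *Slc7a9*, which with *Slc3a1* forms the brush border carrier of cystine and cationic amino acids, fell by 1.85 (-0.031 with the proximal tubule sum as a term, adjusted p = 0.931), and *Slc25a15*, *Slc3a1* and *Slc7a7* were the other 3 lower genes. Between PBS and UNT 43.1% of all tested genes were higher and 39.0% lower. After RGLS4326 *Slc7a9* (0.38), *Slc3a1* (0.48) and the mitochondrial ornithine carrier *Slc25a15* (0.37) were higher than in PBS, and *Slc7a1* (-0.23) and *Slc25a29* (-0.49) were lower. With the proximal tubule sum as a term *Slc7a9*, *Slc3a1*, *Slc25a15* and *Slc7a1* were -0.0213, 0.0154, 0.0543 and -0.0781, and no carrier kept its call. The call of *Slc7a1* (adjusted p = 0.0385) was lost when any 1 of 9 mice was left out. No pathway gene had RGLS4326 and PBS groups that did not overlap (0 of 42, where 0.0639% of all tested genes did not overlap).

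**Figure D4:**
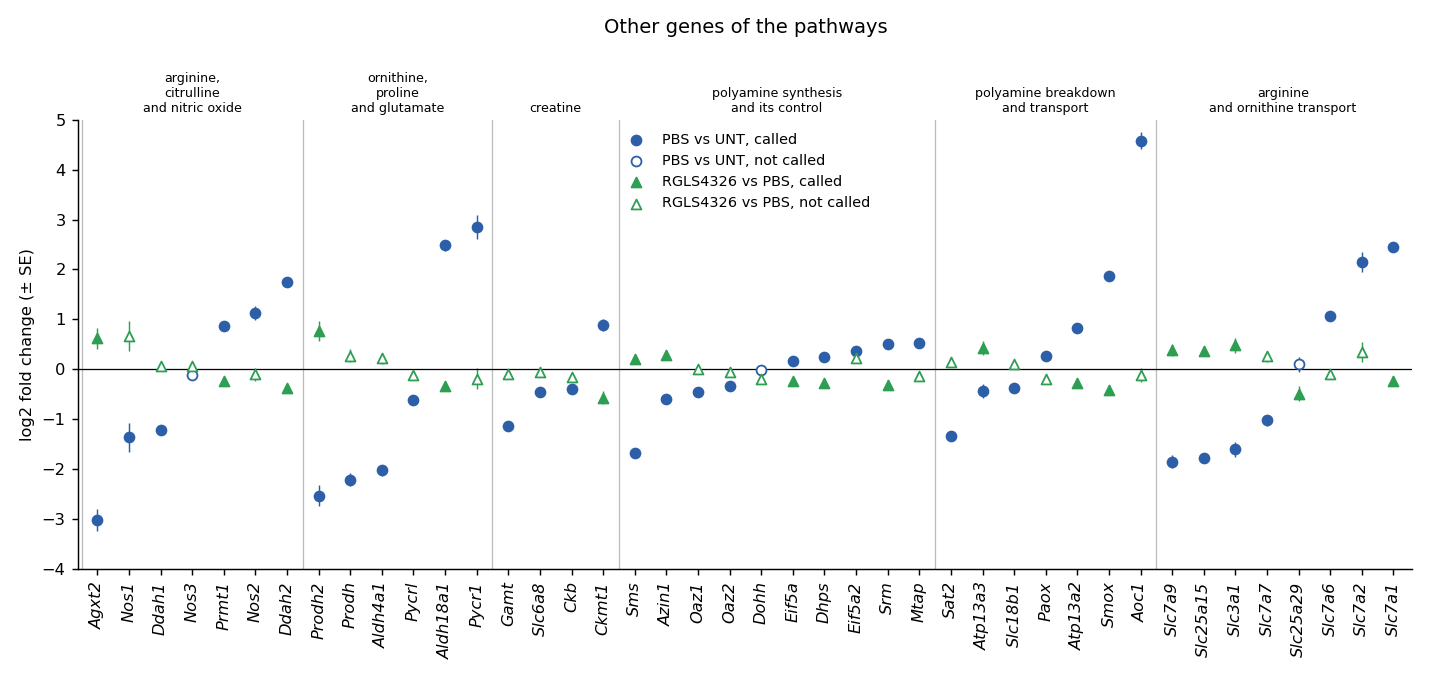
Log2 fold change ± SE (y axis) of the 42 tested pathway genes (x axis, grouped by list and ordered by PBS vs UNT); circles show PBS vs UNT and triangles RGLS4326 vs PBS, filled where the edgeR adjusted p is under 0.05. The circles span from -3.02 (*Agxt2*) to 4.58 (*Aoc1*), and all triangles lie between -0.57 and 0.76; both comparisons share the PBS mice.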

How the data were processed

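Poly(A) RNA libraries of 34 kidneys were analysed. Per the labels and the study's methods, the authors made stranded libraries, trimmed 75-base paired reads (Trim Galore), mapped them with STAR to GRCm38 (mm10) and counted uniquely mapped reads per gene symbol with HTSeq (version 0.6.1 in the submitters' processing notes). The deposited values are raw counts, 1 table per mouse. The annotation was not given in the sources used here. 5 summary rows that name no gene were left out.

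Counts were scaled by TMM and tested with edgeR (4.0.16, R 4.3.3) in a single fit of all 34 libraries with 3 groups and no covariate, after filterByExpr, on 15644 genes. Tests were two-sided, and called means a Benjamini-Hochberg adjusted p under 0.05. Fitting was tested on simulated data with far fewer changed genes than were called here, as many up as down. That test does not cover scaling where many genes differ. DESeq2 (1.42.0), other scalings, no filter, covariates, library sets and leaving out each mouse were alternatives. The genes, lists and tests were chosen with earlier results of these data known. Pathway genes named are the 3 largest called changes of each list between PBS and UNT and those called between RGLS4326 and PBS, other pathway genes were named to spell out a count, after their values were seen, and genes most alike are the 3 with the highest Pearson's r. Symbols of *Azin2* and *Adgre1* were matched through RefSeq synonyms. Some genes of these pathways are not reported here. Positions and shared 75-base stretches came from GENCODE annotation on GRCm38. The labels give 11 PBS mice, more than the study states for its RNA-seq figure, and all were used. Replicates are mice numbered in the labels, and p-values measure the spread between these samples. No 2 libraries were identical (0 pairs).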

Additional observations from a re-analysis of the deposited data

How the results depend on the processing

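Counts of genes called between PBS and UNT kept within 1.5 times of the value reported except with the proximal tubule sum as a term, which gave 2 members, 12 pathway genes and 3355 of all genes, and for RGLS4326 against UNT 2, 21 and 5505, and in library set 2 alone, which gave 5 members for PBS against UNT. The treatment comparison was less stable. Members called fell from 2 to 0, 0 and 0 in library sets 1, 2 and 3 alone and to 0 with the percentage of reads outside genes or the proximal tubule sum as a term, and pathway genes from 19 to 0, 8 and 0, and to 0 and 0. At an unadjusted p under 0.05 edgeR gave 3, 0 and 2 members in the sets and 3 and 1 with these terms, and 23, 9, 12 and 8 pathway genes in sets 1 and 3 and with these terms. All genes called fell from 5280 to 54 in set 1, 4065 in set 2, 0 in set 3 (2826 at an unadjusted p under 0.05), 89 with the percentage of reads outside genes and 2 with the proximal tubule sum. Fewer mice enter a single set, but in set 2 *Gatm* and *Agmat* were also smaller (0.48 and 0.17), and the cause of these losses was not tested. The percentage of reads outside genes left *Gatm* and *Agmat* at 0.73 and 0.58, against 0.87 and 0.52 as reported, whereas the proximal tubule sum left them at 0.28 and 0.19.

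Values that changed sign had no call to begin with in most cases. For RGLS4326 against PBS, *Ass1* became -0.0004 with the library set as a term, -0.35 and -0.13 in sets 2 and 3, and -0.15 with the proximal tubule sum; *Odc1* became -0.0054, -0.13, -0.0435 and -0.0772 in the same order. *Asl* became -0.0393 with the proximal tubule sum and *Oat* 0.0596 with the percentage of reads outside genes. Of called values, *Oat* between PBS and UNT became 0.0499 with library size only, and the proximal tubule sum turned *Gatm* in RGLS4326 against UNT to 0.0196, *Agxt2* and *Prodh2* in PBS against UNT to 0.0515 and 0.28, and *Agxt2* and *Slc7a9* in RGLS4326 against PBS to -0.0028 and -0.0213.

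Leaving out 1 mouse of the groups compared kept 8, 2 and 8 members called in the comparisons. *Ass1* and *Odc1* in RGLS4326 against PBS then ranged from -0.0141 to 0.0799 and from -0.0102 to 0.0559. Library size only moved the share of calls that were higher from 52.5% to 68.6% in PBS against UNT and from 52.5% to 72.5% in RGLS4326 against UNT. Mice with the same number did not deviate together (r from -0.33 to 0.41 over 33 pairs, 9 of them above 0.1, and 3 of 34 libraries most alike to their own number), and the replicate block gave 8, 2 and 8 members and 38, 18 and 35 pathway genes called.

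Of the 8 members, depth limits *Agmat* (13 to 151 reads) most. Among named pathway genes *Pycr1* (mean 0.26 CPM in UNT) and *Nos1* (mean 0.44 CPM in PBS) were lower still.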
